A study of Homo sapiens with 8 samples.

Results

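The genes described here encode the 4 shared core subunits of the histone H3 lysine 4 (H3K4) methyltransferase complexes (WDR5, RBBP5, ASH2L and DPY30) and 6 of the enzymes that carry the catalytic SET domain (KMT2A, KMT2B, KMT2C, KMT2D, SETD1A and SETD1B). They were chosen by gene symbol, 10 in all, and 9 of the 10 had a named probe set among 17687 named genes on the array, each with 1 probe set. SETD1B had no probe set under its symbol or gene identifier and was not analysed here. Expression was measured on Affymetrix arrays in CCRF-CEM, a long-established line of human T-ALL (acute lymphoblastic leukaemia of T cells). In the untreated group, 4 samples of cells that received no compound were kept for 1 h in a gel of bovine type I collagen at 1.7 mg/mL. In the OICR-9429 group, 4 samples received 1 µM OICR-9429 for 1 h before the same 1 h in the gel. All 8 samples were thus in the 3D gel and of 1 cell line, no sample outside the gel was part of the comparison, and the labels name no solvent for the untreated cells. Each sample carries a replicate number from 1 to 4, and the labels call the replicates biological without naming separate cultures or days; the p-values below rest on the spread of these samples, which may be technical.

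WDR5 is a ring-shaped WD40 protein that holds the SET enzymes through a short arginine-containing motif near their C-terminal end, and OICR-9429 is a small molecule that occupies the pocket of WDR5 where that motif docks. RBBP5 and the ASH2L and DPY30 pair complete the core, which raises the activity of the otherwise weak SET domains. KMT2A and KMT2B work with menin at developmental and HOX genes, KMT2C and KMT2D place H3K4 monomethylation at enhancers, and SETD1A and SETD1B account for much of the trimethylation at active promoters. KMT2A is the gene broken by translocations of chromosome band 11q23 in acute leukaemias. The inhibitor acts on protein contacts, so the array asks whether the transcripts of the target and its partners differ after exposure, not whether the complexes are still assembled.

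KMT2A, KMT2B and CXXC1, a subunit of the SETD1 complexes, carry a CXXC domain that binds unmethylated CpG dinucleotides. The 250 bases upstream of the transcription start are shown for WDR5, the target of the compound, and for KMT2A, KMT2C and KMT2D, the 3 members that differed most between samples. They are reference sequence from RefSeq (GRCh38.p14), written 5′ to 3′, and the capitals mark each CG.
WDR5, chr9:134134949-134135198, plus strand: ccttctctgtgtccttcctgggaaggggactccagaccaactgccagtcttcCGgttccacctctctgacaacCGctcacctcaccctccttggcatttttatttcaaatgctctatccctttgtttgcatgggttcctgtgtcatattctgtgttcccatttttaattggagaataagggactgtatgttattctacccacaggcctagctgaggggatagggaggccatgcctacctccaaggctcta
KMT2A, chr11:118436242-118436491, plus strand: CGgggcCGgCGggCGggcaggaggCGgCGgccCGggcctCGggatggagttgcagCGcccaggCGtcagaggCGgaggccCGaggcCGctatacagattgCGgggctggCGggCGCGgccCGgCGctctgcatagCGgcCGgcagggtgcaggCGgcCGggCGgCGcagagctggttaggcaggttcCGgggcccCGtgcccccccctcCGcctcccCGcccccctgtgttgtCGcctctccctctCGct
KMT2C, chr7:152436004-152436253, minus strand: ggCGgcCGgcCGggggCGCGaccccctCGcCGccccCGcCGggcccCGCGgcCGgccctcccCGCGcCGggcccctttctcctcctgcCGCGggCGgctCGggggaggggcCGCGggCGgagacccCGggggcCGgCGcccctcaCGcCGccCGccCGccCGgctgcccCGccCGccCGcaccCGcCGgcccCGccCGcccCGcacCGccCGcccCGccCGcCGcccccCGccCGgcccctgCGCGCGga
KMT2D, chr12:49060795-49061044, minus strand: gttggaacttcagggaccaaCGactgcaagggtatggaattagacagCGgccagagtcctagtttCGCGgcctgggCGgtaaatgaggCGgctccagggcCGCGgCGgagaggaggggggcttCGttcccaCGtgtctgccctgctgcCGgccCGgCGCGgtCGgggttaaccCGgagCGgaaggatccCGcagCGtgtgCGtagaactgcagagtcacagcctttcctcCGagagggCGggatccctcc
The KMT2C window held 48 CpG, the KMT2A window 31 and the KMT2D window 23, while the WDR5 window held 2. Over 14250 measured genes with such a window the median was 18 CpG (quartiles 7 and 26). WDR5 has 4 annotated starts, and the window shown belongs to the most upstream one; the other windows held 9, 23 and 39 CpG. Of 7 members with a window, KMT2B had 40 CpG, SETD1A 23 and RBBP5 12. The E-box CACGTG, a palindrome that reads alike on both strands, was present in the KMT2D window and in no other of the 7, and 7.67% of all such windows held it. These counts describe the letters of the windows and say nothing of binding or methylation in these cells.

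Each probe set has 1 log2 expression value per array, so a difference of 1 is a 2-fold difference. The arrays carried 21448 probe sets each, with array medians between 6.38 and 6.46. Of 16 measured markers of T cells and T-ALL, 14 lay above the array median on all 8 arrays, against 2 of 4 B-cell, 0 of 5 myeloid, 1 of 4 erythroid, and 2 of 6 fibroblast or epithelial markers. Same-numbered arrays resembled each other across the 2 groups, and the 2 arrays numbered 4 stood apart from the other 6, so results that rest on number 4 are given with and without it.

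The target of the compound, WDR5, did not pass the test for a difference between treated and untreated cells. It measured 10.03, 9.12, 9.75 and 9.27 in untreated samples 1 to 4 and 9.93, 9.24, 9.66 and 9.24 in treated samples 1 to 4. The groups overlapped, and in both of them number 1 was the highest sample. The difference was -0.03 ± 0.25 (SE; limma, adjusted p = 1), and within numbers it was -0.10, 0.12, -0.09 and -0.03.

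The 3 other core subunits did not pass the test either. RBBP5, the scaffold that bridges WDR5 and the SET domain, measured 9.23, 9.11, 9.31 and 8.94 untreated and 9.06, 9.27, 9.47 and 9.07 treated. ASH2L, which binds RBBP5 and DPY30, measured 9.16, 9.07, 9.31 and 9.08 untreated and 9.25, 9.34, 9.31 and 9.21 treated. Its values were the tightest of the 9, with a range of 0.27 over all 8 arrays. The ASH2L difference was 0.12 ± 0.14 (SE), with 3 pairs above 0 and 1 pair equal at 2 decimals. DPY30, a small dimeric subunit that joins the core through ASH2L, measured 10.41, 10.24, 10.03 and 9.45 untreated and 10.43, 10.23, 10.11 and 9.78 treated. Number 4 was the lowest DPY30 pair in both groups and also the pair with the largest difference, 0.33, against 0.02, -0.01 and 0.08 in numbers 1 to 3. Without the untreated sample of number 4 the DPY30 difference was -0.09 in place of 0.10, but this leaves the low treated sample unpaired. Without both samples of number 4 the DPY30 difference was 0.03.

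**Figure D1:**
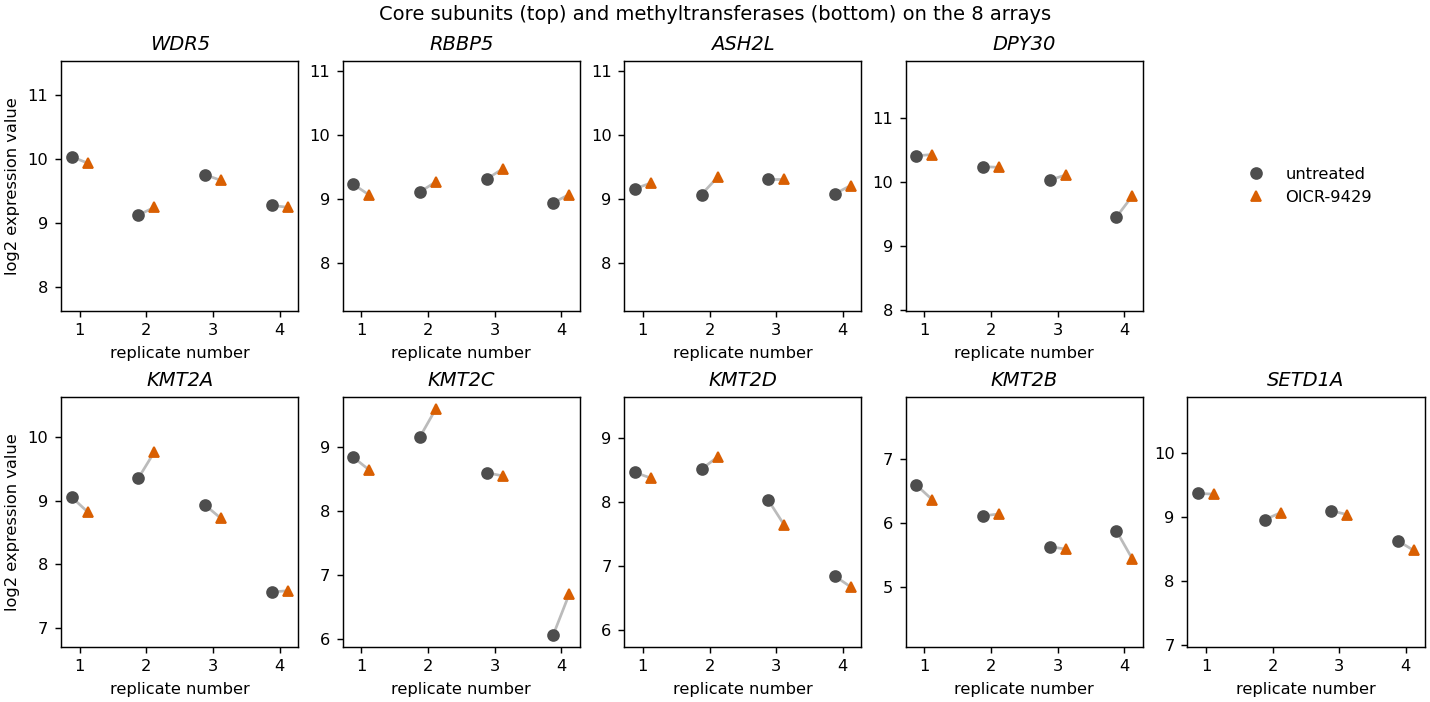
Log2 expression value (y axis) of the 9 measured members against replicate number (x axis), with circles for untreated and triangles for OICR-9429 samples; grey lines join same-numbered samples, and all panels span the same number of log2 units. For ASH2L, number 2 holds the lowest and the highest sample (9.07 and 9.34). KMT2A, KMT2C and KMT2D are lowest in both samples of number 4 (7.57 to 7.59, 6.06 to 6.70 and 6.67 to 6.84), as are SETD1A and DPY30.

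None of the 5 measured enzymes passed the test for treatment, and 3 of them varied widely between samples. Over the 8 arrays KMT2C spanned 3.54 log2 units, KMT2A 2.19 and KMT2D 2.03, against 1.15 for KMT2B, 0.89 for SETD1A and 0.27 to 0.98 for the core subunits. KMT2A, the MLL1 enzyme, measured 9.05, 9.35, 8.93 and 7.57 untreated and 8.82, 9.76, 8.72 and 7.59 treated. KMT2C, the MLL3 enzyme, measured 8.84, 9.16, 8.60 and 6.06 untreated and 8.64, 9.60, 8.55 and 6.70 treated. In both genes number 2 was the highest pair and number 4 the lowest, with or without OICR-9429. The KMT2A difference was -0.0025 ± 0.49 (SE) and the KMT2C difference 0.21 ± 0.76 (SE; limma, adjusted p = 1 for both). KMT2C pairs went both ways, at -0.20, 0.44, -0.05 and 0.64. Without the untreated sample of number 4 the KMT2C difference was -0.49, but this leaves the low treated sample unpaired. Without both samples of number 4 it was 0.06.

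KMT2D, the MLL4 enzyme and closest relative of KMT2C, measured 8.46, 8.51, 8.03 and 6.84 untreated and 8.37, 8.70, 7.64 and 6.67 treated. KMT2B, the closest relative of KMT2A, measured 6.59, 6.11, 5.63 and 5.88 untreated and 6.36, 6.14, 5.59 and 5.44 treated. The KMT2B mean of 5.97 stood at percentile 43.4 of all probe sets, while the 8 other members stood between percentiles 70.0 and 94.2; percentiles of different probe sets do not rank transcript abundance. SETD1A, of the SET1 branch, measured 9.37, 8.96, 9.10 and 8.63 untreated and 9.36, 9.07, 9.04 and 8.48 treated. Each of these 3 enzymes was lower with OICR-9429 in 3 of 4 pairs, by means of -0.12 for KMT2D, -0.17 for KMT2B and -0.03 for SETD1A, and number 2 was the exception in all 3.

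With limma, 0 of 9 members passed an adjusted p of 0.05, as did 0% of all probe sets. At an unadjusted p under 0.05 the count was 0 of 9 members, against 0.49% of all probe sets. With the replicate number as a block it was again 0 of 9, against 5.55% of all probe sets, and the smallest adjusted p among the members was 0.848 (KMT2B, limma with the block). No member had treated and untreated values that did not overlap (0.737% of all probe sets), and no member had 4 pair differences of one sign (12.6% of all probe sets).

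The block, which compares samples within numbers, narrowed what the data allow. For WDR5 the 95% interval of the difference ran from -0.25 to 0.20 with the block and from -0.59 to 0.54 without it. The widest interval among the members with the block was that of KMT2C, from -0.14 to 0.56, against -1.49 to 1.90 without it. With the block the intervals of 9 of 9 members lay within a 1.5-fold change in either direction, as did those of 90.7% of all probe sets; without it 3 of 9 members did, against 42.7%. These intervals carry no adjustment for multiple testing.

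**Figure D2:**
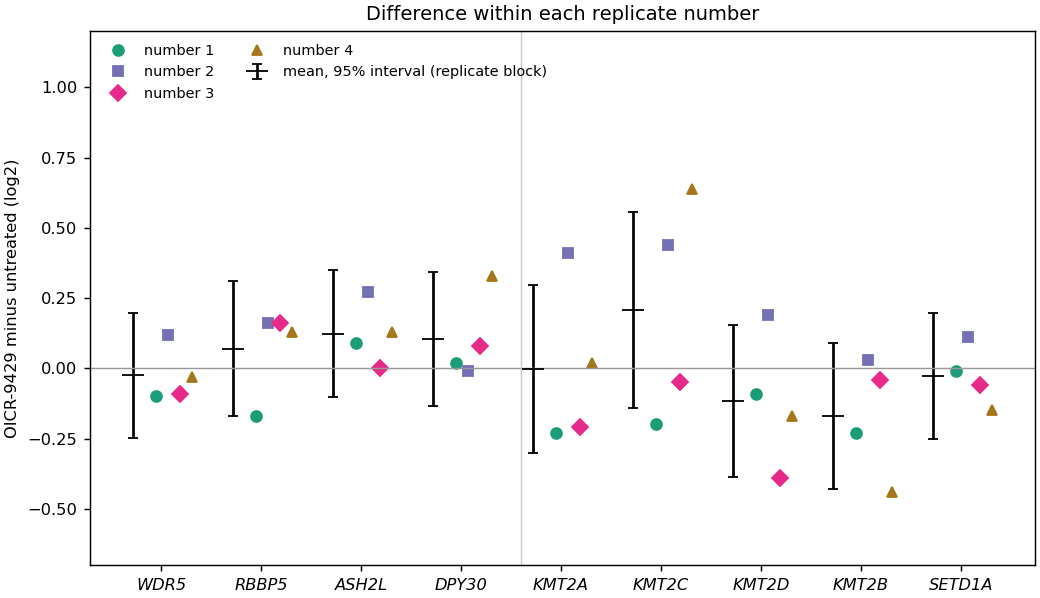
OICR-9429 minus untreated log2 difference (y axis) for each member (x axis), with 1 coloured symbol per replicate number and, in black, the mean over 4 pairs with its 95% interval from the fit with the replicate block. Every interval includes 0, and the pair differences run from -0.44 (KMT2B, number 4) to 0.64 (KMT2C, number 4).

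Core and enzyme genes were also contrasted as classes, after each gene was centred on its own mean over the 8 arrays, since levels of different probe sets cannot be set against each other. Treated minus untreated, the core mean differed by -0.04, 0.14, 0.04 and 0.14 in numbers 1 to 4 and the enzyme mean by -0.15, 0.24, -0.15 and -0.02. Core minus enzymes therefore shifted by 0.09 ± 0.13 (SD, n = 4 pairs), above 0 in numbers 1, 3 and 4 and below 0 in number 2. The shift was smaller than the spread between pairs. The median difference was 0.09 for the core and -0.03 for the enzymes, beside 0.0050 over all probe sets.

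Between replicate numbers, with treatment held constant, the members differed far more. In limma's test of any difference between the 4 numbers, 7 of 9 members passed an adjusted p of 0.05, against 50.3% of all probe sets: all 5 enzymes, WDR5 and DPY30. In a fit on probe sets with a mean above the median, where all members but KMT2B lie, 8848 of 10721 passed. RBBP5 and ASH2L did not pass (adjusted p = 0.21 and 0.739, limma). Without number 4 the count was 4 of 9 members (WDR5, KMT2B, KMT2C and KMT2D), against 13.9% of all probe sets, and KMT2A stood at adjusted p = 0.0614, DPY30 at 0.231 and SETD1A at 0.206 (limma). Without number 1, KMT2B stood at adjusted p = 0.0761 (limma). This test has 2 samples per number and takes its error from the variation of the treatment difference over numbers, so it does not measure the spread between separate cultures.

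Number 4 had lower transcripts of the large KMT2 enzymes. Against the mean of the other 3 numbers, KMT2C was lower there by a log2 difference of -2.52 ± 0.18 (SE; limma, adjusted p = 4.1e-05), with means of 6.38 and 8.90. KMT2D stood at -1.53 ± 0.14 (SE; adjusted p = 8.7e-05) and KMT2A at -1.53 ± 0.15 (SE; adjusted p = 0.00013, limma). For these 3 enzymes both samples of number 4 lay below all 6 other samples, and the same held for SETD1A and DPY30. It did not hold for KMT2B, WDR5, RBBP5 or ASH2L. DPY30 (-0.63 ± 0.12, SE), SETD1A (-0.60 ± 0.11), KMT2B (-0.41 ± 0.13) and WDR5 (-0.37 ± 0.11) were also lower and passed, whereas RBBP5 (-0.24 ± 0.12) and ASH2L (-0.10 ± 0.11) did not. In all, 7 of 9 members were lower at number 4 and 0 higher, against 25.5% of all probe sets lower and 26.3% higher. Bright probe sets were more often lower at number 4, at 41.6% of those with a mean above the median, where 8 of the 9 members lie. WDR5 at number 4 lost its call without number 1 (adjusted p = 0.251, limma) or number 3 (0.0869), and KMT2B without number 1 (0.281) or number 2 (0.0505). Markers of other cells went both ways at number 4: 2 of 5 myeloid markers were higher and 0 lower, and the B-cell (1 higher, 1 lower of 4), erythroid (2 higher, 1 lower of 4) and fibroblast or epithelial (2 higher, 1 lower of 6) lists were mixed. T-cell and T-ALL markers moved too, with 7 of 16 higher and 4 lower (median 0.28), and their mean level was 9.47 and 9.42 in number 4 and 9.03 to 9.41 in the other 6 samples. The mean myeloid level was 5.57 and 5.46 in the 2 samples of number 4 and 5.13 to 5.53 in the other 6, and the part of these markers in the result was not tested.

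At number 2, 3 of 5 enzymes were higher and 1 of 4 core genes lower. KMT2C was higher there by 1.48 ± 0.18 (SE; limma, adjusted p = 0.00161), KMT2A by 1.11 ± 0.15 and KMT2D by 0.94 ± 0.14, while WDR5 was lower by -0.47 ± 0.11 (SE; adjusted p = 0.0176). KMT2B (0.21 ± 0.13), SETD1A (0.02 ± 0.11), DPY30 (0.20 ± 0.12), RBBP5 (0.01 ± 0.12) and ASH2L (-0.02 ± 0.11) did not pass. Over all probe sets 15.4% were higher and 11.6% lower at number 2. In a fit on probe sets with a mean above the median, 6057 of 10721 passed there in either direction. Over all 21448 probe sets it was 5803. Without number 1 the WDR5 value at number 2 was -0.30 (limma, adjusted p = 0.115). Part of this comparison is set by number 4, which counts among the others: without it KMT2C stood at 0.72 ± 0.16 (SE; adjusted p = 0.022), KMT2A at 0.68 ± 0.16 (SE; adjusted p = 0.0309) and WDR5 at -0.66 ± 0.12 (SE; adjusted p = 0.0139, limma), and KMT2D no longer passed (0.48 ± 0.15, SE; adjusted p = 0.0664). In that fit 7.2% of all probe sets were higher and 7.86% lower at number 2. WDR5 and these enzymes thus stood at opposite ends at number 2, with values of 9.12 and 9.24 for WDR5, the lowest of its 8 together with a tie at 9.24 in number 4, and 9.16 and 9.60 for KMT2C, the highest of its 8.

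Number 1 had higher WDR5, at 0.60 ± 0.11 (SE; limma, adjusted p = 0.0123), together with KMT2B (0.68 ± 0.13), KMT2D (0.68 ± 0.14), KMT2C (0.63 ± 0.18), SETD1A (0.48 ± 0.11) and DPY30 (0.45 ± 0.12). That is 6 of 9 members, against 10.6% of all probe sets. Bright probe sets passed more often: in a fit on those with a mean above the median, 4540 of 10721 passed in either direction. Over all 21448 probe sets it was 3580. Without number 4, 2 of 9 members passed as higher at number 1 (WDR5 at 0.54 ± 0.12 and KMT2B at 0.61 ± 0.12, SE; limma, adjusted p = 0.0338 and 0.0245), against 5.85% of all probe sets, and 0 of 9 as lower, against 4.32%. In that fit the KMT2C value turned to -0.24 ± 0.16 (SE) and that of KMT2D fell to 0.20 ± 0.15, so the direction of KMT2C at number 1 rests on number 4. DPY30 at number 1 also lost its call without number 3 (limma, adjusted p = 0.0516). At number 1, 0 of 9 members were lower, against 6.14% of all probe sets. At number 3, 0 of 9 members passed, against 1.18% of all probe sets higher and 0.2% lower. KMT2B stood at -0.48 ± 0.13 there (SE; limma, adjusted p = 0.106), and at number 4 it passed at -0.41 ± 0.13. The adjustment ran within each number, so a given difference can pass at one number and not at another. Counts of calls are therefore not alike between numbers.

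**Figure D3:**
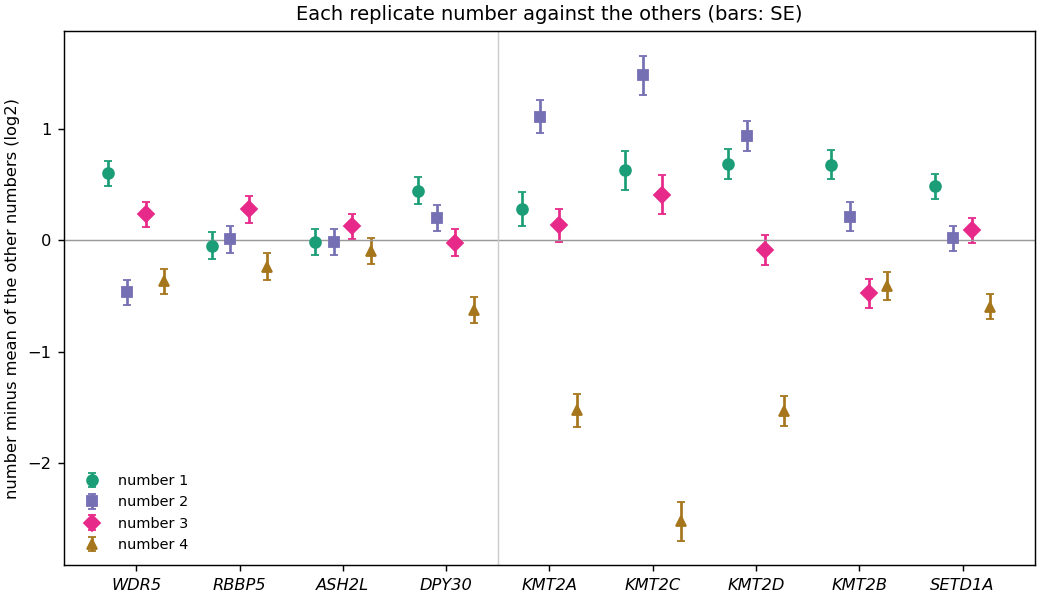
Log2 difference of each replicate number from the mean of the other 3 numbers (y axis) for each member (x axis), with treatment as a term in the fit; symbols are estimates and bars 1 SE. KMT2A, KMT2C and KMT2D run from -1.53, -2.52 and -1.53 at number 4 to 1.11, 1.48 and 0.94 at number 2, while RBBP5 and ASH2L stay between -0.24 and 0.28.

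The order of the numbers differed among members. KMT2A, KMT2C and KMT2D ran from number 2 through 1 and 3 to number 4; for KMT2A, numbers 1 and 3 overlapped, and for the other neighbours of these 3 genes the samples did not overlap. KMT2B ran from number 1 through 2 to numbers 4 and 3, which overlapped. SETD1A ran from number 1 through the overlapping 3 and 2 to number 4, and DPY30 from number 1 through 2 and 3 to 4 with no overlap. WDR5 ran from number 1 through 3 to 4 and 2, the last pair sharing the value 9.24. For ASH2L number 2 overlapped every other number. RBBP5 ran from number 3 through 2 and 1 to 4, and its neighbours overlapped except numbers 3 and 2.

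Profiles over the 8 samples were compared by the root mean square difference of centred log2 values, where 0 means the same profile. Among the enzymes, KMT2A and KMT2D were the nearest pair (0.21), and KMT2C lay 0.46 from KMT2A and 0.52 from KMT2D. SETD1A lay nearer to DPY30 (0.15), WDR5 (0.22), KMT2B (0.26) and RBBP5 (0.27) than to KMT2A (0.55) or KMT2C (0.94). KMT2C and ASH2L were the most distant pair of all (1.11). The samples share 4 numbers, so these distances mostly describe the numbers.

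As classes, the core stood at 0.18, -0.05, 0.12 and -0.25 in numbers 1 to 4 on the centred scale and the enzymes at 0.41, 0.56, 0.01 and -0.99. Core minus enzymes was -0.29, -0.56, 0.01 and 0.66 in the untreated samples 1 to 4 and -0.17, -0.66, 0.20 and 0.82 in the treated ones. The same 2 samples were thus lowest (number 2) and highest (number 4) in each group, and their distance from each other exceeded every difference within a number. Without KMT2C the number 4 value fell from 0.74 to 0.51, and without number 4 the number 1 value was 0.02 in place of -0.23.

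The same classes were set beside 2 lists of chromatin genes from other complexes. Of 18 large chromatin proteins 12 were measured, and 12 of 12 were lower at number 4 (median -1.25), among them the acetyltransferase CREBBP (-1.55 ± 0.12, SE), the scaffold TRRAP (-1.46 ± 0.16) and the remodeller subunit BPTF (-0.80 ± 0.14). Over all probe sets 25.5% were lower and 26.3% higher there, and 41.6% of bright ones were lower. Of 12 small chromatin proteins 11 were measured, and 9 were lower and 2 higher (median -0.59). The histone chaperones RBBP4 and RBBP7 stood at -0.43 ± 0.11 (SE) and -0.89 ± 0.12, and the Polycomb methyltransferase EZH2 at -1.12 ± 0.12. Single genes ran from -2.13 to 1.075 in the small list and from -1.89 to -0.44 in the large list. The 2 lists thus overlapped, and the lowest gene of both was in the small list. The medians of the measured enzymes and core genes were -1.53 and -0.30, beside 0.08 over all probe sets and -0.15 over those with a mean above the median. Small minus large was 0.08, -0.62, 0.06 and 0.48 in numbers 1 to 4, the same order at its ends as core minus enzymes. The lists were chosen with earlier results known, and no difference between these classes was tested.

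**Figure D4:**
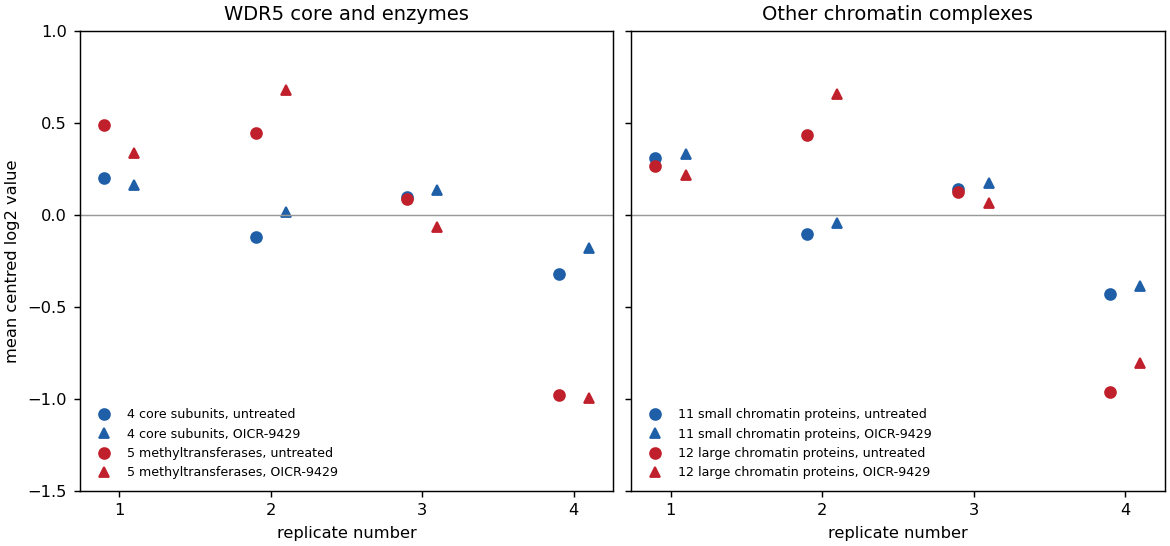
Mean centred log2 value of 2 gene classes (y axis) on each of the 8 arrays by replicate number (x axis), with circles for untreated and triangles for OICR-9429 samples; left, 4 core subunits and 5 methyltransferases, right, 11 small and 12 large proteins of other chromatin complexes. In both panels the large class lies above the small one at number 2 and below it at number 4 (enzymes -0.977 and -0.997, core -0.32 and -0.18).

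Subunits that belong to some of the complexes but not to the shared core were then examined. Of 12 listed, 11 were measured and 0 passed for treatment. Between numbers 9 of 11 passed, against 50.3% of all probe sets. In the fit on probe sets with a mean above the median, where this list lies, 8848 of 10721 passed. Without number 4 the count was 2 of 11, near the 13.9% of all probe sets. At number 4, 7 of 11 were lower and 0 higher, against 25.5% lower (41.6% of bright probe sets) and 26.3% higher. KDM6A, the H3K27 demethylase of the KMT2C and KMT2D complexes, stood at -1.23 ± 0.13 (SE), their coactivator NCOA6 at -1.14 ± 0.14 and their subunit PAXIP1 at -0.66 ± 0.12. HCFC1, which bridges to transcription factors, stood at -1.19 ± 0.15. Menin (MEN1, 0.12 ± 0.14) and the SETD1 subunits CXXC1 (0.21 ± 0.11) and WDR82 (0.08 ± 0.11) did not pass. At number 2, 5 of 11 were higher and 2 lower, against 15.4% and 11.6% of all probe sets. The 2 lower ones were MEN1 at -0.71 (limma, adjusted p = 0.0081) and CXXC1 at -0.41 (limma, adjusted p = 0.0246).

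WDR5 also serves complexes without a SET enzyme, and their genes went different ways. Of 9 listed, 8 were measured, and 7 of 8 passed between numbers, against 50.3% of all probe sets (2 of 8 without number 4, against 13.9%). These genes too lie above the median mean, where 8848 of 10721 probe sets passed in a fit on those alone. At number 4, 5 were lower and 1 higher, against 25.5% lower (41.6% of bright probe sets) and 26.3% higher over all probe sets. KAT8, the acetyltransferase of the NSL complex, was higher there by 1.10 ± 0.11 (SE), while its scaffold KANSL1 stood at -0.41 ± 0.15 (limma, adjusted p = 0.0498) and the glycosyltransferase OGT at -0.93 ± 0.15. With OICR-9429, KAT8 was higher in 4 of 4 pairs (5.94% of all probe sets were) and differed by 0.17 ± 0.34 (SE; limma, adjusted p = 1). With the replicate block the SE of this KAT8 difference was 0.09 (adjusted p = 0.841, limma). Of 9 other SET-domain genes 8 were measured. Of these, 5 passed between numbers and 3 were lower and 2 higher at number 4, shares near those of all probe sets (50.3%, 25.5% and 26.3%). KMT2E, a catalytically inactive relative of the KMT2 enzymes, followed KMT2A with 1.14 at number 2 and -0.997 ± 0.13 (SE) at number 4, whereas SETD7 (-0.25 ± 0.11) and SMYD3 (0.26 ± 0.12) did not pass.

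The genes whose profile lay nearest to the enzyme mean, among 17678 non-member genes, were SCRN3 (0.084), EHBP1 (0.088), KDM6A (0.091), REV1 (0.099) and DYNC1H1 (0.0996), against a root mean square size of 0.61 for the profile itself. KDM6A, a subunit of the KMT2C and KMT2D complexes, measured 8.20, 8.21, 7.81 and 6.74 in untreated and 7.88, 8.29, 7.74 and 6.84 in treated samples 1 to 4. The genes nearest to WDR5 were TIMMDC1 (0.051), ARPC5L (0.057) and LYRM4 (0.061), against a size of 0.33. TIMMDC1, an assembly factor of respiratory complex I, measured 9.86, 9.08, 9.57 and 9.13 untreated and 9.80, 9.02, 9.49 and 9.13 treated, in the same order of numbers 1 and 3 above 4 and 2 as WDR5.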

How the data were processed

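Gene expression was measured on 8 Affymetrix arrays, 4 per group. The deposited unit is log2 expression, 1 value for each probe set and array; per the submitters' processing notes the authors used RMA (background correction, normalization between arrays, summary of probes) and Transcriptome Analysis Console (versions: not given in the sources used here). Scanner signals were not used here, so signal over background is unknown, and the number of arrays limits the precision.

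Names came from the platform annotation through Entrez IDs and RefSeq (17709 with 1 symbol, 0 with several, 3739 with none here). A gene with several probe sets was represented by the one with the highest mean. Groups were compared with limma 3.58.1 (R 4.3.3), two-sided, without a covariate. Numbers were compared with number and treatment as terms, each number against the mean of the others. Benjamini-Hochberg adjustment ran over all 21448 probe sets at 0.05, separately for each number in the latter. Same-numbered samples deviated together (correlations 0.696, 0.748, 0.566 and 0.865, all over 0.1), so the numbers from the titles pair the samples and a replicate block was run as the alternative. Both fits were tested on simulated data. Named genes were the members and a fixed set from each list, chosen whatever their values, plus the 5 and 3 nearest profiles. The members and lists were chosen with earlier results of these data known. Planned classes by protein length were not made, since protein sequences were not used here. Settings tried were the block, each sample or number left out, trend and robust variance, median centring, quantile normalization, a filter on dim probe sets and no treatment term.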

Additional observations from a re-analysis of the deposited data

How the results depend on the processing

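No member passed for treatment under any setting tried (limma): the replicate block, trend and robust variance, median centring, the filter on dim probe sets, or leaving out samples. The count over all probe sets stayed at 0 under each. Signs of these small differences did move. Leaving out 1 sample at a time, the difference ranged from -0.17 to 0.14 for WDR5, -0.0142 to 0.124 for RBBP5, -0.0892 to 0.231 for DPY30, -0.39 to 0.38 for KMT2A, -0.33 to 0.0092 for KMT2B, -0.49 to 0.77 for KMT2C, -0.49 to 0.28 for KMT2D and -0.16 to 0.14 for SETD1A. Leaving out 1 sample leaves its same-numbered partner unpaired, so these ranges also carry the differences between numbers. KMT2A stood at 0.0225 after median centring. A further setting, chosen after seeing the data, was the replicate block with a number left out. There KMT2A stood at 0.0733 without number 1 and 0.0667 without number 3, and SETD1A at 0.0133 without number 4. KMT2C ran from 0.06 to 0.34 there, and KMT2B from -0.24 to -0.08. With all pairs the block changed no call.

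Between numbers, all calls of the members held under trend and robust variance, median centring, the filter (KMT2B is below it) and no treatment term. Leaving out a number, probe sets that differed ranged from 2979 to 10394, and those of number 1 against the others from 2182 to 5489, of number 2 from 3230 to 6332 and of number 3 from 189 to 2783. Number 3 had 297 in all, and 2136 with trend and robust variance, 1728 with the filter and 516 without a treatment term; the cause was not tested. DPY30 at number 1 lost its call without number 3 (limma, adjusted p = 0.0516) or 4 (0.195), and KMT2C, KMT2D and SETD1A at number 1 did so without number 4 (0.38, 0.448 and 0.135). Leaving out a number, KMT2C at number 1 ranged from -0.24 to 1.26.

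Core minus enzymes ranged, leaving out a number, from -0.43 to 0.0169 at number 1, -0.69 to -0.37 at number 2, -0.10 to 0.35 at number 3 and 0.53 to 0.77 at number 4. At number 2 it was -0.51 without WDR5, -0.72 without KMT2B, -0.48 without KMT2C and -0.75 without SETD1A. At number 4 it was 0.91 without KMT2B, 0.51 without KMT2C, 0.87 without SETD1A and 0.87 with medians. All other settings moved it by less than the spread within numbers. Signal over background is unknown, and KMT2B was the 1 member under the median probe set.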

Other observations

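The H3K4 demethylases, which remove the mark that the KMT2 and SETD1 enzymes place, are the counterpart of the members at the same histone residue. Of 6 listed, 5 were measured and 2 passed limma's test between numbers (1 without number 4), against 50.3% of all probe sets. KDM5B, which acts on di- and trimethylated H3K4, was lower at number 1 by -1.04 and higher at number 4 by 0.67 ± 0.11 (SE; limma, adjusted p = 0.00137), where KMT2A, KMT2C and KMT2D were lowest. Its relatives KDM5A (-0.18 ± 0.13, SE) and KDM5C (-0.03 ± 0.11, SE) did not pass at number 4. Of the 5 measured, 1 was higher and 1 lower at number 4, against 26.3% and 25.5% of all probe sets. The list thus went both ways there. With OICR-9429, KDM5B was higher in 4 of 4 pairs by a mean of 0.10 ± 0.34 (SE, limma, adjusted p = 1). With the replicate block the SE was 0.09 (adjusted p = 0.883, limma). Over all probe sets, 5.94% were higher in all 4 pairs.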
